A study of Mus musculus with 30 samples.

Results

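The pericyte marker genes were a set of 10 genes taken by symbol, *Rgs5*, *Rgs4*, *Cspg4*, *Mcam*, *Abcc9*, *Esam*, *Anpep*, *Higd1b*, *Ndufa4l2* and *Cox4i2*, out of the 32316 gene symbols to which the deposited transcript counts were summed. All 10 passed the filter on low counts (6 counts in 3 or more libraries) and were among the 17542 genes tested. A gene present in pericytes alone passes that filter through them, so the number of members that passed is no result.

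Pericytes are mural cells that sit in the basement membrane of capillaries and small venules, share it with the endothelium, and take part in vessel stability and in the control of local blood flow. They are closely related to vascular smooth muscle, and no single gene marks them in every tissue, so they are usually named from several transcripts at once. The 10 genes fall into 4 roles, which are regulators of G protein signalling, surface proteins used to recognise mural cells, a subunit of a potassium channel gated by ATP, and mitochondrial proteins.

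Bulk RNA-seq was performed on 30 libraries, 3 from each of 10 populations sorted from the lamina propria of untreated C57BL6/Nrj mice aged 8 to 10 weeks, after the muscularis externa and the epithelium had been taken off. The labels state that intestines of 3 individual mice were used, and that dead cells, Lineage-positive cells, CD31+, BP3+ and EpCAM+ cells and cells with high NCAM were gated out. The RNA was amplified as whole transcriptome before sequencing. In the small intestine the gate was PDGFRα-ESAM-1+PDPN- for pericytes, PDGFRα-ESAM-1+PDPN+ for smooth muscle cells (SMC), and ESAM-1- for fibroblasts (FB), which were split into PDGFRα hi FB (PDGFRα hiCD34-), Fgfr2+ FB (PDGFRα intCD34-) and CD34+ FB (PDGFRα intCD34+). In the colon the pericyte gate was the same, and ESAM-1- cells were split into PDGFRα hi FB (PDPN+CD34-), Fgfr2+ FB (PDPN hiCD34+CD90-), CD81+ FB (PDPN intCD34+CD90-) and CD90+ FB (PDPN hiCD34+CD90+). No SMC were sorted from the colon.

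The depth, as the sum of estimated counts in replicates 1, 2 and 3, was 6185421, 9075187 and 7860140 in small intestinal pericytes, 9225411, 9314458 and 13866610 in colonic pericytes and 8866828, 9512574 and 13507159 in SMC. In the small intestine it was 11729938, 11930055 and 9432531 in CD34+ FB, 15098412, 10286761 and 2245052 in Fgfr2+ FB and 7327358, 18148945 and 8041204 in PDGFRα hi FB. In the colon it was 16181861, 18710840 and 13102446 in CD81+ FB, 19096945, 15840424 and 14456220 in CD90+ FB, 8740291, 9785938 and 9690792 in Fgfr2+ FB and 7248567, 6865683 and 6986681 in PDGFRα hi FB. The shallowest library was replicate 3 of small intestinal Fgfr2+ FB. Levels are TMM-normalized CPM, listed in the order of replicates 1, 2 and 3 or given as mean ± SD with n = 3. After a log2 fold change, ± gives its standard error, derived from the F statistic of the edgeR test. The limits that low counts set cover counting error only and not the spread that amplification adds.

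The gates could be compared with transcripts of the proteins they used. *Pdpn*, which encodes the PDPN of the gates, had a mean of 0.185 CPM in small intestinal pericytes, 0.276 CPM in colonic pericytes and 10.1 CPM in SMC. *Pdgfra* had a mean of 10.7 CPM in small intestinal pericytes, while PDGFRα hi FB of the same tissue reached 6517 CPM. *Pdgfrb*, the receptor through which pericytes are recruited to vessels, had a mean of 3724 CPM in small intestinal pericytes, 1976 CPM in colonic pericytes and 93.1 CPM in SMC. The labelled pericytes thus carried more *Pdgfrb* and less *Pdpn* than the labelled SMC. *Esam* encodes the protein behind the ESAM-1 gate, and its difference across that gate was not tested.

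A gene was called when edgeR's quasi-likelihood test gave a Benjamini-Hochberg adjusted p below 0.05 over the 17542 genes with a log2 fold change beyond 1.5 in either direction. The first comparisons asked how far the set separates pericytes from their neighbours in the tissue. Against SMC, 8 of the 10 members were called higher in small intestinal pericytes and none lower, beside 4.79% of all tested genes called higher. The members' median log2 difference there was 5.16, or 4.19 with members at the floor of 3 counts set to their bound, beside 0.00 over all tested genes. Against the mean of the 3 small intestinal fibroblast populations, 8 of the 9 members tested were called higher, beside 9.48% of all genes. Their median was 5.75, or 4.74 with bounds, beside -0.02 over all genes. Against the mean of the 4 colonic fibroblast populations, 8 of 9 were called higher in colonic pericytes, beside 9.29% of all genes, with a median of 7.78, or 7.22 with bounds, beside 0.01. The members had been picked as pericyte markers, so that direction was given by their choice. The comparisons of small intestinal pericytes share the 3 pericyte libraries. The mean over fibroblast populations was taken on the log2 scale, so a fold against it exceeds the fold against the fibroblast population with the highest level.

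SMC against the 3 small intestinal fibroblast populations asked the same of the other cells of the ESAM-1+ gate. Of the 9 members tested, 4 were called, 2 higher and 2 lower, beside 5.16% of all genes called in either direction. Their median was -0.32, or -0.85 with bounds, beside -0.04 over all genes. *Rgs5* and *Mcam* were higher in SMC, and *Abcc9* and *Anpep* were lower. *Mcam* encodes CD146, which the authors treat as interchangeable with ESAM-1 in staining, so its direction was partly given by the gate. The other 5 members tested, *Rgs4*, *Cspg4*, *Higd1b*, *Ndufa4l2* and *Cox4i2*, were not called in either direction. In bulk samples, fewer cells of a type and less RNA per cell cannot be told apart.

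**Figure D1:**
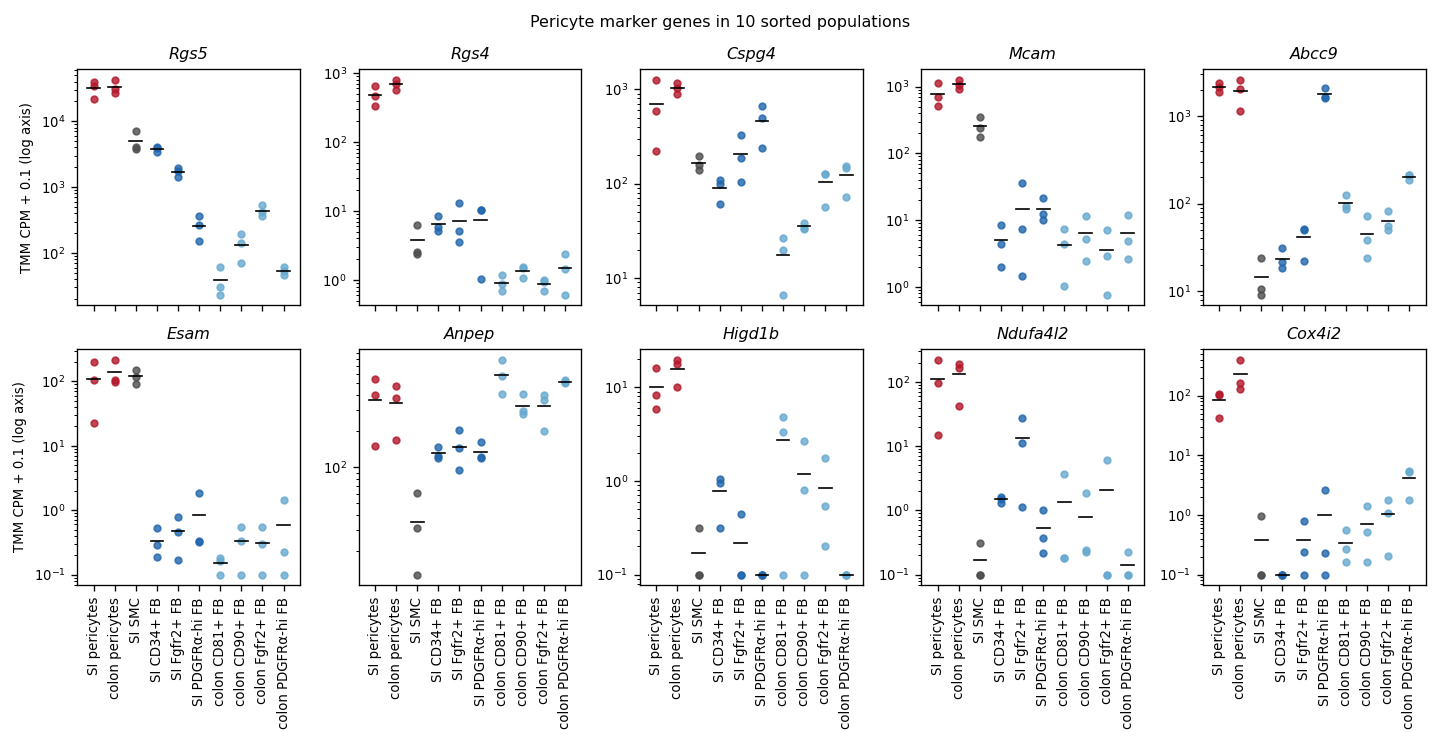
TMM-normalized CPM plus 0.1 on a log axis for each of the 10 genes, 1 panel per gene, with the 10 populations along the horizontal axis, 1 point per library and a bar at the mean of 3. Pericytes are red, SMC grey, small intestinal fibroblasts dark blue and colonic fibroblasts light blue. Small intestinal PDGFRα hi FB reach the pericyte level for *Abcc9*, and *Anpep* is as high in colonic fibroblasts as in pericytes.

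*Rgs5* (chr1:169655501-169695813, + strand, GRCm38, GENCODE M21) encodes a protein that speeds the end of signals from receptors coupled to G proteins. It ranked 1 by mean CPM among all genes in the pericytes of both tissues and held 1.95% to 3.72% of the counts in the pericyte libraries. It reached 39052, 21877 and 34349 CPM in small intestinal pericytes. It reached 31047, 42918 and 26512 CPM in colonic pericytes. SMC held 4125, 3821 and 7216 CPM. Every pericyte library lay above every SMC and fibroblast library, and the pericyte ranges of both tissues overlapped. Fibroblasts of the small intestine also carried the transcript, with 3871, 4085 and 3448 CPM in CD34+ FB. Fgfr2+ FB of that tissue held 1927, 1419 and 1779 CPM. PDGFRα hi FB there held 266, 363 and 152 CPM. These 3 fibroblast ranges did not overlap, CD34+ FB being high and PDGFRα hi FB low, and the CD34+ FB range overlapped that of SMC.

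Colonic fibroblasts had less *Rgs5*, with 359, 426 and 533 CPM in Fgfr2+ FB. CD90+ FB held 70.8, 141 and 191 CPM. PDGFRα hi FB of the colon held 53.1, 45.7 and 61.1 CPM, and CD81+ FB held 61.1, 30.5 and 23.2 CPM. In the order of means, colonic and small intestinal pericytes overlapped, SMC overlapped CD34+ FB, small intestinal Fgfr2+ FB stood apart from both neighbours, colonic Fgfr2+ FB overlapped small intestinal PDGFRα hi FB, which overlapped CD90+ FB, and colonic PDGFRα hi FB overlapped CD81+ FB at the bottom. *Rgs5* was 6.28-fold higher in small intestinal pericytes than in SMC (log2 fold change 2.65 ± 0.37, adjusted p 9.34e-06). Against fibroblasts it was 26.7-fold higher in the small intestine (log2 fold change 4.74 ± 0.26, adjusted p 1.98e-13) and 319.7-fold higher in the colon (log2 fold change 8.32 ± 0.26, adjusted p 2.38e-19). SMC exceeded small intestinal fibroblasts 4.24-fold (log2 fold change 2.08 ± 0.26, adjusted p 2.05e-06), although 1 SMC library lay within the range of CD34+ FB.

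The *Rgs5* level in CD34+ FB was 12% of the mean in small intestinal pericytes. For the other members the same share was 35.8% for *Anpep*, 12.9% for *Cspg4*, 6.8% for *Higd1b*, 1.32% for *Rgs4* and 1.24% for *Ndufa4l2*. It was 1.09% for *Abcc9*, 0.63% for *Mcam*, 0.215% for *Esam* and 0% for *Cox4i2*, which had no count in any CD34+ FB library. *Notch3*, a receptor of mural cells, had a mean of 6177 CPM in small intestinal pericytes and 6.91 CPM in CD34+ FB. In SMC the share was 15.9% for *Rgs5*, 33.1% for *Mcam*, 23.7% for *Cspg4*, 0.756% for *Rgs4* and 0.68% for *Abcc9*, and *Notch3* had a mean of 6.27 CPM. The shares thus differed between members within the same libraries, and the part of pericyte RNA in the SMC and fibroblast libraries was not tested.

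*Rgs4* (chr1:169741477-169747642, - strand) encodes another regulator of the same family and lies beside *Rgs5*, with 45663 bases and no annotated gene between them. Its level was 649, 334 and 466 CPM in small intestinal pericytes. In colonic pericytes it was 690.2, 571 and 807 CPM. In SMC it was 6.22, 2.31 and 2.42 CPM. All 6 pericyte libraries lay far above the other 24, and both tissues overlapped. Small intestinal CD34+ FB held 8.30, 5.06 and 5.80 CPM. Fgfr2+ FB of that tissue held 5.1, 3.43 and 12.8 CPM, and PDGFRα hi FB held 10.3, 10.3 and 0.919 CPM. The ranges of these 3 overlapped each other and that of SMC. Means in the 4 colonic fibroblast populations lay between 0.767 and 1.39 CPM, each overlapping the next, and the highest of them, PDGFRα hi FB, lay just below SMC without overlap. *Rgs4* was 132-fold higher in pericytes than in SMC (log2 fold change 7.04 ± 0.73, adjusted p 8.37e-08). Against fibroblasts the difference was 6.15 ± 0.44 in the small intestine (adjusted p 2.31e-11) and 9.38 ± 0.44 in the colon (adjusted p 2.31e-15). SMC and small intestinal fibroblasts overlapped and did not pass the test (log2 fold change -0.89 ± 0.50, adjusted p 0.376).

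Per kb of effective transcript length, *Rgs4* made up 2.28% ± 0.205 of the sum of *Rgs4* and *Rgs5* in small intestinal pericytes and 3.23% ± 1.07 in colonic pericytes. *Rgs2*, a relative of both, was lower in pericytes than in SMC (log2 fold change -4.05 ± 0.86, adjusted p 0.00203). Per kb it made up 0.234% ± 0.113 of the sum with *Rgs5* in colonic pericytes and 92.8% ± 0.802 in colonic PDGFRα hi FB. *Rgs3* was higher in small intestinal pericytes than in fibroblasts (log2 fold change 2.68 ± 0.49, adjusted p 0.000178) and did not pass against SMC (adjusted p 0.808). Of this pair *Rgs5* was thus the more abundant in pericytes and *Rgs2* in colonic PDGFRα hi FB.

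The starts of both neighbours are shown because the genes lie tail to tail on opposite strands, so that their starts are far apart, and both were highest in pericytes. The 250 bases before the RefSeq start (GRCm38.p6) were at hand for 6 of the 10 members, *Rgs5*, *Rgs4*, *Cspg4*, *Mcam*, *Abcc9* and *Anpep*. Gene coordinates in this text are those of GENCODE, whose starts of *Cspg4*, *Mcam*, *Abcc9* and *Anpep* differ from the RefSeq ones, so the bases of these 4 lie partly or, for *Anpep*, wholly inside the coordinates given. For the neighbours they are chr1:169655251-169655500 on the + strand for *Rgs5* and chr1:169747643-169747892 on the - strand for *Rgs4*, written 5′ to 3′ with matches to the CCAAT box (CCAAT, read as ATTGG on the opposite strand) and to the TATA box (TATAAA) in capitals.
Rgs5: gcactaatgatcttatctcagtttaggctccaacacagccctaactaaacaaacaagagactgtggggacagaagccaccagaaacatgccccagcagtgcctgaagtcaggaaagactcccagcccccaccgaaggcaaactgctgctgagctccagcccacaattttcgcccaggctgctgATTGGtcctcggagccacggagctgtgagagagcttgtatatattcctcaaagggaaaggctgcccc
Rgs4: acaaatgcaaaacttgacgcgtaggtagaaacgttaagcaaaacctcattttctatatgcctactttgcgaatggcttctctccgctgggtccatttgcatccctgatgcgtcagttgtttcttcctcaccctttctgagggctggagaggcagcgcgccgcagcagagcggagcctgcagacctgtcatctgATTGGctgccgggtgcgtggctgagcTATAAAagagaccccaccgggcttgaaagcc
A CCAAT box on the opposite strand ended 63 bases before the start of *Rgs5* and 53 bases before that of *Rgs4*, and 33.8% of all 32851 promoters of this length hold one on either strand. CCAAT was added to the search after the sequences had been seen. The TATA box of *Rgs4* began 31 bases before its start, and 12.4% of promoters hold TATAAA. None of the 6 members held a CArG box (1.47% of all promoters), TCCCNNGGGA (0.779%), GTGGGAA (5.42%), GTAAACA (3.17%) or ACGTG (16.6%) in these bases. GGGCGG (32.7%) was found in *Cspg4*, *Mcam*, *Abcc9* and *Anpep*, CAGCTG (13%), which reads the same on both strands, in *Abcc9* and *Anpep*, and GGAATG (12.6%) in *Abcc9*. No match overlapped another motif in the sequences shown. A match is a description of the letters and not of a site in use.

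The surface proteins were less alike. *Cspg4* (chr9:56865033-56899870, + strand) encodes the proteoglycan NG2, used in many organs to stain pericytes. It stood at 1267, 223 and 587 CPM in small intestinal pericytes. It stood at 901, 1175 and 1023 CPM in colonic pericytes and at 198, 138 and 157 CPM in SMC. Small intestinal PDGFRα hi FB held 496, 664 and 238 CPM. Replicate 2 of small intestinal pericytes was low, below every library of these PDGFRα hi FB, so the populations overlapped, while all pericyte libraries lay above SMC. Fgfr2+ FB of the small intestine held 185, 326 and 105 CPM, and CD34+ FB held 60.8, 99.7 and 108 CPM. Colonic means were 123 ± 45.3 CPM in PDGFRα hi FB, 102.9 ± 40.5 CPM in Fgfr2+ FB, 35.1 ± 2.58 CPM in CD90+ FB and 17.5 ± 10.0 CPM in CD81+ FB. Neighbours overlapped from colonic pericytes down to small intestinal CD34+ FB, and CD90+ and CD81+ FB stood apart below them. The test gave 2.07 ± 0.53 against SMC (adjusted p 0.0101). Without small intestinal pericyte replicate 1 it gave 1.24 (adjusted p 0.136), and without SMC replicate 2 1.96 (adjusted p 0.0502). The fit of only the populations compared lost the call too (2.05, adjusted p 0.138). Against small intestinal fibroblasts it was 1.76 ± 0.39 (adjusted p 0.00153), and 0.96 (adjusted p 0.128) without replicate 1 of the pericytes. Over all alternatives the adjusted p of *Cspg4* ran from 0.000859 to 0.138 against SMC and from 0.000164 to 0.128 against these fibroblasts. In the colon the difference was 4.29 ± 0.35 (adjusted p 1.5e-10), with every pericyte library above every fibroblast library.

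*Mcam* (chr9:44134469-44142727, + strand) encodes CD146, an adhesion molecule of vessel walls. Pericytes held 1116, 514 and 697 CPM in the small intestine. Those of the colon held 920.1, 1278 and 1071 CPM, and SMC held 244, 176 and 351 CPM. SMC libraries lay below all pericyte libraries and above all fibroblast libraries. Means in the 7 fibroblast populations lay between 3.49 CPM in colonic Fgfr2+ FB and 14.8 CPM in those of the small intestine, and neighbours overlapped throughout. Against small intestinal fibroblasts *Mcam* was 76.1-fold higher in pericytes (log2 fold change 6.25 ± 0.62, adjusted p 1.15e-08) and 25.2-fold higher in SMC (log2 fold change 4.66 ± 0.60, adjusted p 2.77e-06). In the colon the pericyte excess was 220.2-fold (log2 fold change 7.78 ± 0.58, adjusted p 2.84e-11). The authors state that CD146 and ESAM-1 are interchangeable in their staining. The direction of these differences across the ESAM-1 gate was thus partly given by the sort. The difference between pericytes and SMC did not pass (log2 fold change 1.59 ± 0.81, adjusted p 0.21).

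*Esam* (chr9:37528078-37538319, + strand) encodes an adhesion molecule of endothelial cells and mural cells. Its level was 22.3, 203 and 104 CPM in small intestinal pericytes, where replicate 1 was low. Colonic pericytes held 98.1, 218 and 107 CPM and SMC 117, 91.9 and 149 CPM. These 3 populations overlapped, while all 7 fibroblast populations had means below 1 CPM, from 0.0488 CPM in CD81+ FB to 0.732 CPM in PDGFRα hi FB of the small intestine, each overlapping the next. Pericytes and SMC, both sorted with the gate, did not pass a test against each other (log2 fold change -0.12 ± 0.89, adjusted p 0.979).

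*Anpep* (chr7:79821803-79861059, - strand) encodes CD13, an aminopeptidase of pericytes that fibroblasts and epithelium also carry. Small intestinal pericytes held 546, 151 and 400.2 CPM. Colonic pericytes held 381, 474 and 170.1 CPM. SMC held 31.1, 12.6 and 60.8 CPM, below every library of the other 9 populations. The highest means were not in pericytes but in CD81+ FB, with 576, 791 and 412 CPM. Colonic PDGFRα hi FB held 516, 534 and 504 CPM. CD90+ FB had 326 ± 68.8 CPM and colonic Fgfr2+ FB 322 ± 106 CPM. Small intestinal pericytes overlapped all 4 colonic fibroblast populations, and colonic pericytes overlapped all but PDGFRα hi FB, which lay above them. Small intestinal fibroblast means were 148 ± 54.0 CPM in Fgfr2+ FB, 134 ± 23.8 CPM in PDGFRα hi FB and 131 ± 15.6 CPM in CD34+ FB, which overlapped one another, and replicate 2 of small intestinal pericytes lay within the range of the first 2. *Anpep* was higher in small intestinal pericytes than in SMC (log2 fold change 3.39 ± 0.50, adjusted p 2.04e-05), and SMC lay below small intestinal fibroblasts (log2 fold change -1.98 ± 0.42, adjusted p 0.0027). The first call was lost with the most abundant transcript (4.33), the adjusted p being 7.83e-11 to 0.111 over all alternatives, and the second with that transcript (-3.33) and with length-scaled counts (-1.44), the adjusted p being 3.63e-05 to 0.243. Against small intestinal fibroblasts pericytes were higher by 1.41 ± 0.35 (adjusted p 0.00437), short of the fold threshold, and by 1.78 (adjusted p 0.000666) without replicate 2 of the pericytes, or 1.51 (adjusted p 0.00336) without replicate 2 of Fgfr2+ FB, both of which passed, as did DESeq2, RLE factors and length-scaled counts, within a range of 0.000176 to 0.615 over all alternatives. In the colon no difference passed (log2 fold change -0.31 ± 0.37, adjusted p 0.63). *Enpep*, the related aminopeptidase A, did separate pericytes from fibroblasts in the small intestine (log2 fold change 4.29 ± 0.68, adjusted p 2.75e-05) and in the colon (log2 fold change 5.02 ± 0.60, adjusted p 2.43e-07).

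*Abcc9* (chr6:142587862-142702315, - strand) encodes SUR2, the regulatory subunit that joins the pore protein Kir6.1, encoded by *Kcnj8*, in the potassium channel that links the metabolism of vessel walls to their tone. Small intestinal pericytes held 2139.7, 2402 and 1866 CPM. Colonic pericytes held 2032, 2610.4 and 1139 CPM. SMC held 10.4, 9.05 and 24.1 CPM. Pericytes lay far above SMC, which had the lowest mean of the 10 populations. Small intestinal PDGFRα hi FB held 1589, 1662 and 2101 CPM, and those of the colon held 185, 214 and 213 CPM. The small intestinal PDGFRα hi FB overlapped the pericytes of the colon and, in 1 library, those of the small intestine, whereas colonic PDGFRα hi FB lay below all of these and above the other colonic fibroblasts. CD34+ FB held 30.7, 21.2 and 18.2 CPM, and small intestinal Fgfr2+ FB 22.0, 50.3 and 51.2 CPM. The other colonic means were 102 ± 21.3 CPM in CD81+ FB, 63.0 ± 17.8 CPM in Fgfr2+ FB and 44.4 ± 24.3 CPM in CD90+ FB. In the order of means the first 3 populations overlapped, colonic PDGFRα hi FB and CD81+ FB each stood apart, and from colonic Fgfr2+ FB downward neighbours overlapped.

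*Abcc9* was 147-fold higher in small intestinal pericytes than in SMC (log2 fold change 7.20 ± 0.51, adjusted p 9.91e-11). Against fibroblasts it was higher by 4.16 ± 0.29 in the small intestine (adjusted p 1.53e-11), where the PDGFRα hi FB overlapped the pericytes, and by 4.46 ± 0.27 in the colon (adjusted p 4.41e-13), where no library did. SMC lay below small intestinal fibroblasts (log2 fold change -3.04 ± 0.39, adjusted p 2.88e-06), with SMC replicate 3 within the range of CD34+ FB. *Kcnj8* held 441, 80.4 and 303 CPM in small intestinal pericytes. It held 352, 901 and 334 CPM in colonic pericytes, and PDGFRα hi FB of the small intestine held 569, 709.8 and 427 CPM. Colonic PDGFRα hi FB held 60.7, 74.9 and 58.5 CPM. Small intestinal PDGFRα hi FB were at the pericyte level for both subunits, and colonic PDGFRα hi FB below it. *Kcnj8* was higher in pericytes than in SMC (log2 fold change 5.48 ± 1.00, adjusted p 0.000335), than in small intestinal fibroblasts (log2 fold change 3.53 ± 0.62, adjusted p 0.000113) and than in colonic fibroblasts (log2 fold change 4.69 ± 0.56, adjusted p 2.44e-07). Per kb, *Kcnj8* made up 27.3% ± 15.4 of the sum of both subunits in small intestinal pericytes, 44.8% ± 7.65 in colonic pericytes and 49.9% ± 8.36 in small intestinal PDGFRα hi FB.

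The subunits of the channel of pancreatic beta cells, SUR1 (*Abcc8*) and Kir6.2 (*Kcnj11*), were at 0 in every library of small intestinal pericytes and SMC. In colonic pericytes *Abcc8* had a mean of 18.9 CPM and *Kcnj11* of 24.5 CPM. Against the floor of 3 counts per library, *Abcc8* was at least 40.8-fold lower in small intestinal than in colonic pericytes (adjusted p 0.0262) and *Kcnj11* at least 52.8-fold lower (adjusted p 0.034). Against colonic fibroblasts the excess was at least 72.5-fold (adjusted p 4.83e-05) for *Abcc8*, whereas *Kcnj11* reached 5.15 CPM in a library of colonic PDGFRα hi FB and only 2.69 CPM in the lowest library of colonic pericytes, so those populations overlapped although the test passed against the mean of all 4 (at least 61.4-fold with populations at the floor set to it, adjusted p 0.000765). Per kb *Abcc9* still made up 95.0% ± 6.96 of the SUR pair in colonic pericytes.

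**Figure D2:**
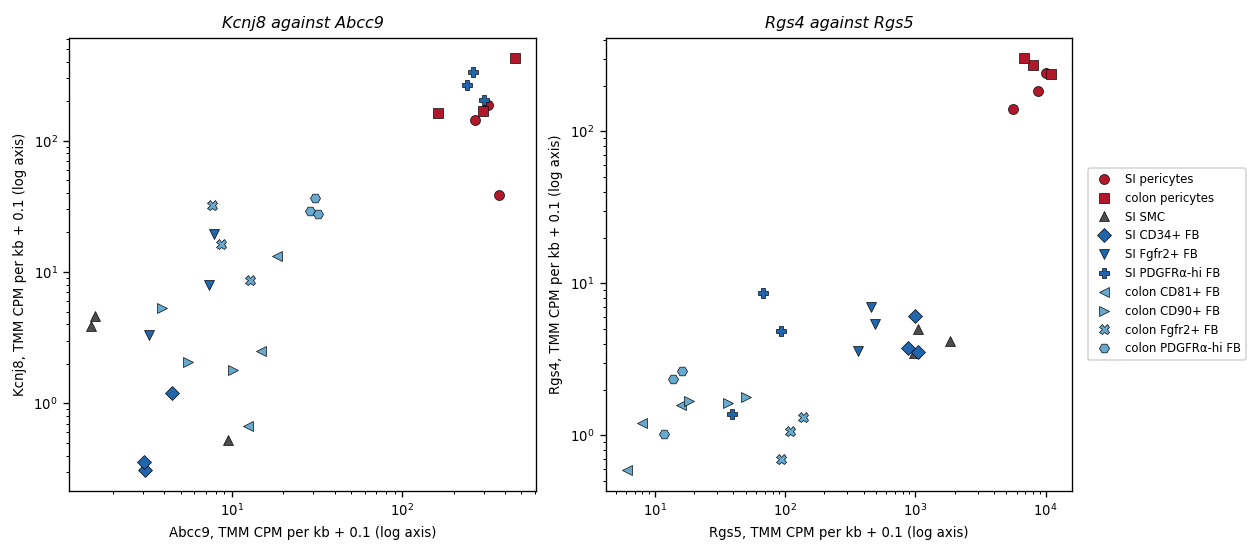
TMM-normalized CPM per kb plus 0.1, on log axes, of *Kcnj8* against *Abcc9* (left) and of *Rgs4* against *Rgs5* (right), 1 symbol per library and 1 shape per population. Small intestinal PDGFRα hi FB lie among the pericytes on the left and far below them on the right.

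Of the mitochondrial members, *Ndufa4l2* (chr10:127514967-127517154, + strand) encodes a protein related to the respiratory chain subunit NDUFA4. It was found at 14.8, 223 and 94.7 CPM in small intestinal pericytes. It was found at 189, 167 and 42.8 CPM in colonic pericytes and at 0.211, 0 and 0 CPM in SMC. Pericyte replicates differed widely, replicate 1 being low in the small intestine and replicate 3 in the colon. Small intestinal Fgfr2+ FB held 11.2, 26.9 and 1.04 CPM and overlapped the lowest pericyte library, and the other fibroblast means lay between 0.0409 and 1.96 CPM, each overlapping the next. *Ndufa4l2* was at least 356-fold higher in pericytes than in SMC (adjusted p 0.00123). Against fibroblasts it was higher by 5.75 ± 1.04 in the small intestine (adjusted p 0.000173) and at least 149-fold in the colon (adjusted p 8.56e-07). SMC and small intestinal fibroblasts did not pass (adjusted p 0.125, and 0.0412 to 0.45 over all alternatives, of which DESeq2, no filter and the fit of only the populations compared passed). The last bases of *Ndufa4l2* overlap *Shmt2* on the opposite strand, and whether the libraries keep strands apart is not stated.

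*Cox4i2* (chr2:152754173-152765037, + strand) encodes the alternative form of subunit 4 of cytochrome c oxidase, the usual form being that of *Cox4i1*. Small intestinal pericytes held 101, 42.3 and 108 CPM. Colonic pericytes held 162, 404 and 130.3 CPM. SMC held 0.844, 0 and 0 CPM. All colonic pericyte libraries lay above all small intestinal ones, and these above every other library. Colonic PDGFRα hi FB held 5.15, 1.66 and 5.3 CPM, all above the other colonic fibroblasts though replicate 2 by very little, and small intestinal PDGFRα hi FB held 0.134, 2.54 and 0 CPM. CD34+ FB had no count in any library, and the other means lay below 1 CPM and overlapped. The test gave 8.17 ± 1.53 against SMC (adjusted p 0.000551) and 8.07 ± 0.81 against colonic fibroblasts (adjusted p 1.99e-08). Against small intestinal fibroblasts the excess was at least 165-fold (adjusted p 1.62e-07). SMC against fibroblasts did not pass (adjusted p 0.658).

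*Higd1b* (chr11:102835849-102838040, + strand) encodes a protein of the family of *Higd1a*, a gene induced by hypoxia whose product binds cytochrome c oxidase. It had 5.80, 8.08 and 16.0 CPM in small intestinal pericytes. It had 19.7, 17.5 and 9.92 CPM in colonic pericytes and 0.211, 0 and 0 CPM in SMC. PDGFRα hi FB of both tissues had no count in any library. CD81+ FB held 4.68, 0 and 3.25 CPM, below all pericyte libraries, and the means of CD90+ FB, colonic Fgfr2+ FB, CD34+ FB and small intestinal Fgfr2+ FB lay between 0.115 and 1.09 CPM and overlapped. *Higd1b* was at least 31.9-fold higher in pericytes than in SMC (adjusted p 0.026). That call was lost without SMC replicate 2 (adjusted p 0.095, log2 fold change 6.40) and without SMC replicate 3 (adjusted p 0.102, log2 fold change 6.39), with the most abundant transcript (adjusted p 0.0741) and with the fit of only the populations compared (adjusted p 0.0868), within a range of 0.00176 to 0.102 over all alternatives. The excess over fibroblasts was at least 21.1-fold in the small intestine (adjusted p 0.000383) and at least 16.5-fold in the colon (adjusted p 0.00102).

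Each of the 3 has a paralog of wider use, and levels per kb allow the pair to be compared. *Ndufa4l2* made up 99.7% ± 0.464 of the sum with *Ndufa4* in small intestinal pericytes and 98.4% ± 1.3 in colonic pericytes. In SMC it made up 0.124% ± 0.216, and the largest fibroblast share was 16.7% ± 11.1 in small intestinal Fgfr2+ FB. This share moved from both sides, because *Ndufa4* itself was low in pericytes, with 0, 2.15 and 0 CPM in the small intestine. It held 0.753, 0.252 and 0.647 CPM in colonic pericytes and 29.1, 30.9 and 24.9 CPM in SMC. Every pericyte library lay below every SMC and fibroblast library. *Ndufa4* was lower in pericytes than in SMC (log2 fold change -5.22 ± 1.01, adjusted p 0.000738), than in small intestinal fibroblasts (log2 fold change -4.69 ± 0.94, adjusted p 0.000579) and than in colonic fibroblasts (log2 fold change -4.91 ± 0.94, adjusted p 0.000321).

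*Cox4i2* made up 74.3% ± 19.8 of the sum with *Cox4i1* in small intestinal pericytes, 78.7% ± 5.42 in colonic pericytes, 0.346% ± 0.598 in SMC and, highest among fibroblasts, 5.63% ± 3.75 in colonic PDGFRα hi FB. Here the paralog did not pass in any of the 3 comparisons, with *Cox4i1* at -0.78 against SMC (adjusted p 0.579), -0.79 against small intestinal fibroblasts (adjusted p 0.461) and 0.24 against colonic fibroblasts (adjusted p 0.872). Its libraries were uneven, at 2.15, 23.0 and 46.3 CPM in small intestinal pericytes and 35.8, 112 and 17.5 CPM in colonic pericytes. *Higd1b* made up 83.7% ± 16.1 of the sum with *Higd1a* in small intestinal pericytes and 82.6% ± 16.3 in colonic pericytes. In SMC it made up 2.01% ± 3.49, and in CD81+ FB, whose libraries differed widely, 33.8% ± 40.4. *Higd1a* did not pass against SMC (adjusted p 0.39) or against fibroblasts of either tissue (adjusted p 0.332 and 1.0), and it was higher in small intestinal PDGFRα hi FB than in the other small intestinal fibroblasts (log2 fold change 2.97 ± 0.69, adjusted p 0.00824).

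**Figure D3:**
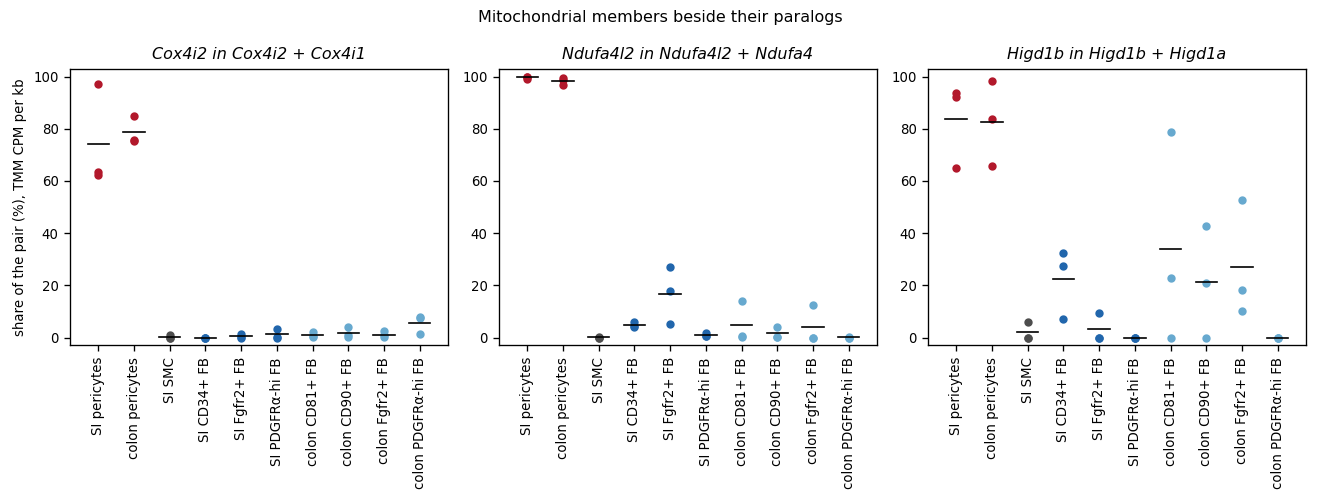
Share of the member in the sum with its paralog, from TMM-normalized CPM per kb in percent, for *Cox4i2* with *Cox4i1*, *Ndufa4l2* with *Ndufa4* and *Higd1b* with *Higd1a*, 1 point per library and a bar at the mean of 3. The pericyte libraries of both tissues lie above 60% in each panel, and the only other libraries above 50% are in the *Higd1b* panel.

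Because these 3 genes are often described as responsive to low oxygen, 12 other genes of that response were listed beside them. Of the 12, 0 were called higher and 3 lower in pericytes than in SMC (median -0.80), 1 higher and 3 lower than in small intestinal fibroblasts (median -0.54) and 3 higher and 1 lower than in colonic fibroblasts (median -0.31). Of all 17542 genes 841 were higher and 938 lower in the first of these comparisons, 1663 and 1241 in the second and 1629 and 1176 in the third. *Vegfa*, the growth factor of endothelium, was lower in pericytes than in small intestinal fibroblasts (log2 fold change -3.81 ± 0.57, adjusted p 1.27e-05) and than in colonic fibroblasts (log2 fold change -2.74 ± 0.52, adjusted p 0.000285), while the carbonic anhydrase *Car9* was higher (2.73, adjusted p 0.0176, and 4.0, adjusted p 0.000194). The summed level of the 12 was 325, 300.3 and 222 CPM in small intestinal pericytes, 421, 257 and 644 CPM in colonic pericytes and 529.6, 526 and 272 CPM in SMC, with *Ldha* the most abundant in all but 2 of these 9 libraries. Their part in the levels of the members was not tested.

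Compared per kb within pericytes, *Rgs5* stood far above the rest, with a mean of 8129 CPM per kb in the small intestine and 8606 CPM per kb in the colon. In the small intestine *Mcam* (323), *Abcc9* (317), *Anpep* (200.1), *Rgs4* (189), *Esam* (158), *Cox4i2* (156), *Ndufa4l2* (143), *Cspg4* (88.0) and *Higd1b* (27.0) followed, each overlapping the next. In the colon the order after *Rgs5* was *Cox4i2* (439), *Mcam* (413), *Abcc9* (305), *Rgs4* (271), *Ndufa4l2* (174), *Cspg4* (132), *Anpep* (104), *Esam* (85.8) and *Higd1b* (45.2), and only *Rgs5* at the top and *Higd1b* at the bottom did not overlap their neighbour.

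The members did not move together between replicate libraries of small intestinal pericytes. Replicate 1 had the highest level of *Rgs5*, *Rgs4*, *Cspg4*, *Mcam* and *Anpep* and the lowest of *Esam*, *Higd1b* and *Ndufa4l2*, and replicate 2 had the lowest level of the first 5 and of *Cox4i2* and the highest of *Abcc9*, *Esam* and *Ndufa4l2*. The highest library exceeded the lowest 15.1-fold for *Ndufa4l2*, 9.07-fold for *Esam*, 5.69-fold for *Cspg4*, 1.79-fold for *Rgs5* and 1.29-fold for *Abcc9*. In colonic pericytes the same ratio was 4.41-fold for *Ndufa4l2*, 3.1-fold for *Cox4i2*, 1.62-fold for *Rgs5* and 1.3-fold for *Cspg4*.

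Across the 10 populations, each member was correlated with the mean profile of the 9 others (log2 CPM, each centred), which was followed most closely by *Rgs4* (Pearson's r 0.97, n = 10 population means, as a description), *Mcam* (0.88), *Cox4i2* (0.87) and *Ndufa4l2* (0.86) and least by *Abcc9* (0.62) and *Anpep* (0.00). Among 12565 other genes with a mean of at least 10 CPM in 1 population, the 10 most like the mean profile of all 10 members were *Ybx2*, *Map7d2*, *D430042O09Rik*, *Tmem50b*, *Ephx3*, *Mprip*, *Cysltr2*, *Luzp1*, *Gja4* and *Hey2*, with r from 0.98 to 0.99. They ranged from genes found almost only in pericytes, such as *Gja4*, a gap junction protein, with a mean of 268 CPM in small intestinal pericytes and 0.182 CPM in SMC, to genes with a high level everywhere, such as *Mprip*, with 1168 and 447 CPM. The points share libraries and normalization.

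PDGFRα hi FB, which lie under the epithelium, were compared with the other fibroblasts of their tissue to see which members they carry. In the small intestine 3 of the 10 members were called, beside 3.38% of all genes in either direction, with a median of 0.44 beside 0.01 over all genes. *Abcc9* was 57.6-fold higher (log2 fold change 5.85 ± 0.36, adjusted p 7.37e-12), with all 3 libraries above the other 6. *Cspg4* was 3.44-fold higher (log2 fold change 1.78 ± 0.43, adjusted p 0.011), with overlap of 1 library, and gave 1.73 (adjusted p 0.0513) without replicate 1 and 1.43 (adjusted p 0.145) without replicate 2 of the PDGFRα hi FB, within a range of 0.002 to 0.145 over all alternatives. *Rgs5* was 9.79-fold lower (log2 fold change -3.29 ± 0.36, adjusted p 3.03e-07), below all 6 other libraries. The partner *Kcnj8* was higher with *Abcc9* (log2 fold change 6.87 ± 0.79, adjusted p 6.03e-07). Without replicate 3 of the PDGFRα hi FB *Cox4i2* was called too (log2 fold change 4.95, adjusted p 0.0446), on levels of at most 2.54 CPM, as it was by DESeq2 and with no filter, the range over all alternatives being 0.02 to 1.0.

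In the colon 3 of the 10 members were called by edgeR, all higher in PDGFRα hi FB, beside 3.51% of all genes in either direction, with a median of 0.53 beside -0.06. *Abcc9* was 3.09-fold higher (log2 fold change 1.63 ± 0.30, adjusted p 0.000548), again with no overlap, and *Kcnj8* was higher too (log2 fold change 2.21 ± 0.61, adjusted p 0.0348). *Cspg4* was 3.1-fold higher (log2 fold change 1.63 ± 0.39, adjusted p 0.0101), with overlap, and its call was lost without CD81+ FB replicate 1 (1.5, adjusted p 0.0158), PDGFRα hi FB replicate 1 (1.44, adjusted p 0.103) or PDGFRα hi FB replicate 3 (1.5, adjusted p 0.0825), within a range of 0.00119 to 0.103 over all alternatives. *Cox4i2* was 7.83-fold higher (log2 fold change 2.97 ± 0.86, adjusted p 0.0491), with no overlap. Its call was lost when any one of CD81+ FB replicates 2 and 3, CD90+ FB replicates 1 and 2, Fgfr2+ FB replicates 1 and 3 and PDGFRα hi FB replicates 1, 2 and 3 was left out, with log2 fold changes from 2.73 to 3.34 and adjusted p from 0.06 to 0.211, and also with length-scaled counts, with the most abundant transcript and with the fit of only the populations compared. *Cox4i2* was not called with the replicate number as a block either. Over all alternatives the range was 0.00793 to 0.211. *Higd1b*, without a count in PDGFRα hi FB, was called lower there by DESeq2 alone (adjusted p 0.0243, beside 0.103 by edgeR and 0.0243 to 1.0 over all alternatives). *Rgs5* was lower in PDGFRα hi FB by less than the fold threshold (log2 fold change -1.3 ± 0.31, adjusted p 0.0103). Whether these differences are unequal between the tissues was not tested for PDGFRα hi FB against other fibroblasts, since the other populations differ in their gates.

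The tissues were compared within the 3 populations sorted from both. Pericytes of the small intestine against those of the colon gave 0 called members of 10 by edgeR, beside 5.72% of all genes called in either direction. DESeq2 called 0 as well, and 0 members had an unadjusted p below 0.05, beside 4230 of 17542 genes. The members' median was -0.43, beside 0.00 over all genes. The largest difference was in *Cox4i2* (log2 fold change -1.47 ± 1.1, adjusted p 0.432), with all 3 small intestinal libraries below all 3 colonic ones. An exact two-sided permutation test of 3 against 3 libraries cannot give a p below 0.10. *Rgs5* was at -0.08 ± 0.35 (adjusted p 0.954) and *Abcc9* at 0.15 ± 0.39 (adjusted p 0.876), with the smallest standard errors among the 10.

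PDGFRα hi FB did differ between the tissues in 3 of 10 members, beside 0.963% of all genes, with a median of 1.55, or 0.84 with bounds, beside 0.02. *Abcc9* was 8.75-fold higher in the small intestine (log2 fold change 3.13 ± 0.42, adjusted p 3.86e-05). *Rgs5* was 4.89-fold higher (log2 fold change 2.29 ± 0.37, adjusted p 0.000399). Neither overlapped between the tissues. *Anpep* was 3.87-fold lower in the small intestine (log2 fold change -1.95 ± 0.47, adjusted p 0.0331), without overlap, and its call was lost when any one of the 6 libraries, replicates 1, 2 and 3 of either tissue, was left out (log2 fold change -2.11 to -1.87, adjusted p 0.0852 to 0.191), with the most abundant transcript (-2.57, adjusted p 1.0) and with length-scaled counts (-1.84, adjusted p 0.104), the range over all alternatives being 0.000506 to 1.0. *Rgs4* missed the threshold (log2 fold change 2.37 ± 0.64, adjusted p 0.0716) and passed it without small intestinal replicate 3 (2.89, adjusted p 0.00456), by DESeq2 and with no filter, the range over all alternatives being 0.00456 to 1.0. *Cspg4* missed it (log2 fold change 1.92 ± 0.53, adjusted p 0.0863) although its ranges did not overlap (adjusted p 0.0242 to 0.47 over all alternatives, of which DESeq2, no filter and the fit of only the populations compared passed), and *Kcnj8* missed it (log2 fold change 3.14 ± 0.89, adjusted p 0.101).

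Fgfr2+ FB differed in 2 of 10 members, beside 1.45% of all genes, with a median of 0.73 beside -0.01. *Rgs5* was 3.89-fold higher in the small intestine (log2 fold change 1.96 ± 0.36, adjusted p 0.00208) and *Rgs4* 8.81-fold higher (log2 fold change 3.14 ± 0.67, adjusted p 0.00868), both without overlap. The *Rgs4* call was lost without colonic replicate 2 (2.98, adjusted p 0.0678) and without small intestinal replicate 3 (2.47, adjusted p 0.0632), the shallowest library, and with the most abundant transcript (2.07) and the fit of only the populations compared (3.26), within a range of 0.000124 to 0.759 over all alternatives. *Ndufa4l2* was called without colonic replicate 3 (adjusted p 0.0448, log2 fold change 10.15), which leaves 2 colonic libraries without a count and a fold change set by the default prior count of the fit, the range over all alternatives being 0.0448 to 0.688. *Enpep* was lower in the small intestine (log2 fold change -5.54 ± 1.15, adjusted p 0.00632). The gates of Fgfr2+ FB and of PDGFRα hi FB differ between the tissues, so tissue and gate cannot be told apart here, whereas the pericyte gate was the same.

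The pericyte excess over PDGFRα hi and Fgfr2+ FB, the populations sorted from both tissues, was compared between the tissues by an interaction term. Of 9 members tested 2 were called, both with a smaller excess in the small intestine, beside 3.03% of all genes in either direction. The median was -2.04, or -1.70 with bounds, beside -0.01 over all genes, and 6 of the 9 had an unadjusted p below 0.05, beside 3329 of 17542 genes. *Rgs5* had a tissue difference of -2.20 ± 0.43 (adjusted p 0.00437) and *Rgs4* of -3.27 ± 0.73 (adjusted p 0.0122). Over all alternatives the adjusted p was 0.000167 to 0.0158 for *Rgs5* and 0.000806 to 0.464 for *Rgs4*, whose call was lost with the most abundant transcript (-3.03). For both, the pericytes of the tissues overlapped while the means of both fibroblast populations were higher in the small intestine. *Cspg4* did not pass (log2 fold change -2.04 ± 0.63, adjusted p 0.0704), but did without small intestinal pericyte replicate 1 (-2.84, adjusted p 0.0147), and *Anpep* (log2 fold change 1.64 ± 0.56, adjusted p 0.101) did without replicate 2 of the same population (2.01, adjusted p 0.0376). DESeq2 called both, no filter *Cspg4* and length-scaled counts *Anpep*. Over all alternatives the adjusted p ran from 0.0147 to 0.145 for *Cspg4* and from 0.0264 to 0.933 for *Anpep*.

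A list of 30 other mural genes, of which 29 were tested, showed how far the members' pattern extends. Against SMC 20 were higher in pericytes and 2 lower (median 4.05), against small intestinal fibroblasts 21 and 1 (median 4.02) and, in the colon, 21 and 0 (median 3.52). *Notch3* was 985-fold higher than in SMC (log2 fold change 9.94 ± 0.83, adjusted p 1.69e-09) and *Pdgfrb* 40.0-fold (log2 fold change 5.32 ± 0.40, adjusted p 1.95e-10). *P2ry14* and *Foxf2* were the ones lower than in SMC (-3.40, adjusted p 8.52e-05, and -3.0, adjusted p 0.00565). SMC against fibroblasts gave 7 higher and 4 lower (median -0.43). Between pericytes of the tissues none was called (median 0.16). In PDGFRα hi FB 4 were higher and 3 lower in the small intestine and 5 and 4 in the colon, with the endothelin receptor *Ednra* among those higher in both (3.46, adjusted p 1.52e-08, and 1.94, adjusted p 2.81e-05). Between the tissues 0 were higher and 2 lower in PDGFRα hi FB and 0 and 5 in Fgfr2+ FB, and the interaction gave 3 and 1. The list of 14 paralogs and partners gave 2 higher and 2 lower against SMC, 3 and 2 against small intestinal fibroblasts and 3 and 3 against colonic fibroblasts. Those not named above were *Jam2*, an adhesion molecule related to *Esam*, higher than in SMC (log2 fold change 2.45 ± 0.46, adjusted p 0.000549) and lower than in colonic fibroblasts (log2 fold change -1.65 ± 0.39, adjusted p 0.00293), *Alcam*, related to *Mcam*, lower than in small intestinal fibroblasts (log2 fold change -4.0 ± 0.92, adjusted p 0.00242) and than in colonic fibroblasts (log2 fold change -2.95 ± 0.87, adjusted p 0.0158), and *Rgs16*, higher than in small intestinal fibroblasts (log2 fold change 3.87 ± 1.38, adjusted p 0.0473).

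Pericytes were lower than SMC in 8 of 14 contractile genes and higher in 0 (median -2.07), higher than small intestinal fibroblasts in 9 (median 1.76) and higher than colonic fibroblasts in 11 and lower in 1, *Hhip* (median 4.14). The list is one of smooth muscle genes, and *Hhip* and *Myocd* on it do not encode contractile proteins. SMC were higher than fibroblasts in 12 (median 4.0). The smooth muscle myosin *Myh11* and the actin *Acta2* were lower in small intestinal than in colonic pericytes (log2 fold change -2.14 ± 0.50, adjusted p 0.0119, and log2 fold change -1.81 ± 0.38, adjusted p 0.00595), where none of the 10 members was called. The summed level was 10033, 6718 and 6908 CPM in small intestinal pericytes with *Mylk* most abundant, 15873, 17003 and 17811 CPM in colonic pericytes with *Myh11* most abundant, and 34554, 29991 and 36998 CPM in SMC with *Myh11* most abundant. None of the 14 was at 0 in any of these libraries. The part of smooth muscle cells in the colonic pericyte libraries was not tested.

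In the fibroblast comparisons contractile genes were called together with members. In PDGFRα hi FB 5 of the 14 were higher and 2 lower than in other fibroblasts of the small intestine (median 0.43) and 7 and 1 in the colon (median 1.80), *Acta2* by 3.09 (adjusted p 9.23e-08) and 3.99 (adjusted p 8.68e-11) and *Myh11* by 3.85 (adjusted p 1.72e-07) and 3.50 (adjusted p 9.54e-08). Between the tissues 1 was higher and 1 lower in PDGFRα hi FB of the small intestine, and 4 were higher and 0 lower in its Fgfr2+ FB, namely *Myh11* (2.1, adjusted p 0.0216), *Des* (2.47, adjusted p 0.00357), *Mylk* (2.00, adjusted p 0.00016) and *Synpo2* (1.61, adjusted p 0.0154). The interaction gave 1 higher, *Hhip*, and 5 lower (median -1.67), the latter being *Acta2*, *Des*, *Tagln*, *Mylk* (-1.96, adjusted p 0.00186) and *Myh11* (-4.07, adjusted p 0.000324), in the direction of *Rgs5* and *Rgs4*. Of the 12 fibroblast markers the interaction called 4 higher and 0 lower, among them *Col3a1* (2.61, adjusted p 0.000324) and *Fbln1* (3.41, adjusted p 0.000339), and Fgfr2+ FB of the small intestine had 0 higher and 4 lower than those of the colon. Among the latter 4 was *Cd34*, whose protein the Fgfr2+ FB gate excluded in the small intestine and required in the colon. Whether other cells in the gates have a part in these differences was not tested.

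Markers of other cell types were read in the same libraries. Of 18 endothelial markers 15 were tested, and 4 were higher in pericytes than in SMC, 5 than in small intestinal fibroblasts, 3 higher and 1 lower than in colonic fibroblasts, and 1 higher in small intestinal than colonic pericytes, with medians of 1.65, 2.19, 0.45 and 1.09. Their summed level was 383, 419 and 271 CPM in small intestinal pericytes, 119, 143 and 174 CPM in colonic pericytes and 70.9, 69.5 and 224 CPM in SMC. *Tek*, the angiopoietin receptor, was the most abundant in small intestinal pericyte replicates 1 and 3 and *Ptprb* in replicate 2, and *Tek* had a mean of 111 CPM there and 0.276 CPM in colonic pericytes (log2 fold change 8.74 ± 1.00, adjusted p 4.73e-06). *Cldn5*, *Erg* and *Sox18* were at 0 in all 6 pericyte libraries, and *Cdh5*, *Sox17* and *Robo4* in some of them. *Pecam1*, which encodes CD31, had a mean of 81.4 CPM in SMC, with a range of 38.9 to 165 CPM. It was not called in pericytes against SMC (log2 fold change -0.17 ± 0.46, adjusted p 0.869). Nor was it called against small intestinal fibroblasts (0.71 ± 0.36, adjusted p 0.173), against colonic fibroblasts (0.45 ± 0.35, adjusted p 0.423) or between pericytes of the tissues (0.54 ± 0.46, adjusted p 0.496). The sort gated out CD31+ cells, and whether endothelial RNA remained was not tested.

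Of 12 fibroblast markers, 6 were lower in pericytes than in SMC, 11 lower than in small intestinal fibroblasts and 12 lower than in colonic fibroblasts, with none higher and medians of -2.66, -5.44 and -4.63, or -1.68, -4.66 and -4.63 with bounds. *Pdgfra*, *Pdpn* and *Cd34* of this list encode proteins that the gates used, so their direction was partly given by the sort. They summed to 4753, 3997 and 3249 CPM in small intestinal pericytes, 2312, 2683 and 2589 CPM in colonic pericytes and 8457, 7644 and 12914 CPM in SMC, with *Col3a1* or *Col1a1* most abundant and *Pi16* at 0 in all 3 small intestinal and 1 of the colonic pericyte libraries. Of 11 immune markers 9 were tested, and 1 was higher in pericytes than in SMC, 2 higher and 1 lower than in small intestinal fibroblasts, 3 higher than in colonic fibroblasts and 1 lower in small intestinal than colonic pericytes. They summed to 218, 24.5 and 79.1 CPM in pericytes of the small intestine and 17.4, 206 and 93.0 CPM in those of the colon. *Cd79a*, a B cell gene, made up most of the first value and *Lyz2* was the most abundant in colonic replicate 2, while *Cd3e* and *Tyrobp* were at 0 in at least 2 of the 3 libraries of each. In SMC they summed to 12.9, 28.2 and 32.6 CPM.

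Of 12 epithelial markers 6 were tested, with 0 called against SMC, 1 higher than in small intestinal fibroblasts and 1 higher than in colonic fibroblasts. They summed to 26.4, 45.3 and 3.94 CPM in small intestinal pericytes, 23.7, 37.1 and 3.59 CPM in colonic pericytes and 4.43, 8.76 and 5.39 CPM in SMC, with *Lgals4* or *Vil1* most abundant in the pericytes and *Epcam* at 0 in all 9 libraries. Of 9 glial markers 5 were tested, with 1 lower than in SMC, 1 lower than in small intestinal fibroblasts and 1 higher and 1 lower than in colonic fibroblasts. They summed to 67.9, 45.2 and 46.6 CPM in small intestinal pericytes, 55.1, 76.9 and 50.1 CPM in colonic pericytes and 1029, 1217 and 3832 CPM in SMC, where nearly all of it was *Ncam1*, and *Gfap* and *Foxd3* were at 0 in all 9 libraries. Of 5 erythroid markers 1 was tested and not called, and they summed to 1.29, 0 and 0.738 CPM, 0.968, 4.41 and 18.6 CPM and 1.90, 8.57 and 0 CPM in the same order. The part of other cell types in the levels of the members was not tested.

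The last list held 3 markers of interstitial cells of Cajal, the pacemaker cells of the gut wall. *Kit*, which defines them, was at 0 in 1 small intestinal and 2 colonic pericyte libraries, with means of 2.93 and 0.0420 CPM. *Ano1*, a chloride channel that contractile cells of vessels also use, had means of 779 CPM in pericytes of the small intestine, 723 CPM in those of the colon and 1.11 CPM in SMC. It was higher in pericytes than in SMC (log2 fold change 9.44 ± 0.95, adjusted p 4.61e-08), than in small intestinal fibroblasts (log2 fold change 9.60 ± 0.58, adjusted p 8.71e-13) and than in colonic fibroblasts (log2 fold change 7.98 ± 0.48, adjusted p 5.84e-13). The 3 genes summed to 1159, 584 and 742 CPM in small intestinal pericytes, 808, 901 and 687 CPM in colonic pericytes and 16.2, 8.76 and 31.3 CPM in SMC, and 1 of the 3, *Ano1*, was called higher in each of the 3 comparisons.

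Reads were unlikely to be shared with other genes for most members, since at most 1.6% of the 31-base stretches of a member's transcripts, in *Abcc9*, occurred in transcripts of other genes, and none in *Cspg4*, *Esam*, *Anpep*, *Higd1b*, *Ndufa4l2* or *Cox4i2*.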

How the data were processed

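The authors trimmed the reads with Trim Galore 0.4.0, checked them with FastQC 0.11.2 and quantified transcripts with kallisto 0.42.5, and the deposited files give estimated counts and TPM per transcript in 30 libraries. The estimated counts were summed to genes by symbol (GENCODE M21, 97116 of 98492 transcripts matched) and rounded. Depth was 2245052 to 19096945 estimated counts, with a median of 9601683. The TPM values were used only to check the order of genes and for length-scaled counts.

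Genes that reached 6 counts in 3 or more libraries were fitted in R 4.3.3 with edgeR 4.0.16 on limma 3.58.1 (TMM factors, quasi-likelihood F test, 10 population means), and p was adjusted by Benjamini-Hochberg over all genes tested. A prior count of 2 was used for log2 CPM only, and the fit kept edgeR's default. Pericytes and SMC were compared with the mean of the fibroblast populations of their tissue. Library replicates are labelled 1, 2 and 3, and the authors state that small intestinal and colonic cells were sorted from the same mice, but not which libraries share a mouse, so the numbers entered as blocks in 1 alternative only. A fold change against a population with at most 3 counts in each library was computed against that floor.

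The alternatives were DESeq2 1.42.0, RLE and upper-quartile factors, no filter, a stricter filter (10 counts throughout the 3 libraries of any population), length-scaled counts, the most abundant transcript, only the populations compared, replicate number as a block, a fold threshold of 1 or none, and leaving out each library in turn. The 10 members and the gene lists were chosen with earlier results of these data known. Named genes are the members, the genes of the lists (other mural genes, paralogs and partners, hypoxia response, smooth muscle contractile, endothelial, fibroblast, immune, epithelial, glial, erythroid and interstitial cell of Cajal markers), and the 10 other genes whose mean profile correlated most with that of the members.

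With 3 libraries per population, differences in genes of a few counts could not be resolved. No colonic SMC were sorted, so pericytes and SMC were compared in the small intestine only. *Esam* encodes the protein used for sorting and was not tested across that gate. *Mcam* was tested across it, although its protein can replace ESAM-1 in the authors' staining. Sorted populations may hold other cells, and the levels of marker lists are given for that reason. No protein sequences were at hand, so none are shown.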

Additional observations from a re-analysis of the deposited data

Results flagged for a closer look

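The difference between pericytes and the PDGFRα hi and Fgfr2+ FB was unequal in the tissues for 2 genes by the interaction test. For *Rgs5* the log2 difference in the small intestine minus that in the colon was -2.20 (adjusted p 0.00437), and for *Rgs4* it was -3.27 (adjusted p 0.0122). Pericytes of both tissues overlapped for both genes, and the fibroblast means were higher in the small intestine. With the most abundant transcript in place of the sum over transcripts the *Rgs4* value was -3.03 and was not called (adjusted p 0.464), within a range of 0.000806 to 0.464 over all alternatives, and that of *Rgs5* was 0.000167 to 0.0158. Other genes were unequal too. Of the contractile list 5 of 14 genes were called in the same direction, *Myh11* with -4.07 (adjusted p 0.000324), and 1, *Hhip*, in the other, as were 4 of 12 fibroblast markers, while pericytes of the tissues differed in *Myh11* (-2.14, adjusted p 0.0119). The fibroblast gates differ between the tissues, so tissue and gate cannot be told apart, and the cause was not tested.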

How the results depend on the processing

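Of 214 counts of called members compared over the alternatives, 204 lay within 1.5 times the reported count and 10 did not. Against colonic fibroblasts 8 members were called in pericytes under every alternative run, and between pericytes of the tissues 0. For colonic PDGFRα hi FB against other fibroblasts the count ranged from 1 to 3 when single libraries were left out, 1 being reached without PDGFRα hi FB replicate 1 or 3 (*Cspg4* and *Cox4i2* lost). For PDGFRα hi FB between the tissues DESeq2 and the absence of a filter gave 5 (*Rgs4* and *Cspg4* gained). For Fgfr2+ FB the most abundant transcript and the fit of only the populations compared gave 1 (*Rgs4* lost), and leaving out single libraries gave 1 to 3. For the interaction DESeq2 gave 4 (*Cspg4* and *Anpep* gained) and the most abundant transcript 1 (*Rgs4* lost). The cause was not tested.

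Of 1737 values of single members, 1635 kept direction and side of the threshold, 42 were no longer called, 25 became called and 35 changed sign, all 35 called in neither case. With length-scaled counts *Esam* reached 0.93 against SMC and 0.84 between pericytes, and *Anpep* 0.10 in small intestinal PDGFRα hi FB. With the most abundant transcript *Anpep* reached 0.12 in colonic pericytes against fibroblasts and -0.60 between pericytes, *Mcam* 0.29 between pericytes, *Cox4i2* -0.16 in small intestinal PDGFRα hi FB and *Esam* -0.16 in PDGFRα hi FB between the tissues. With upper-quartile factors *Rgs5* reached 0.0049 between pericytes. Upper-quartile factors moved the median of all genes in colonic pericytes against fibroblasts from 0.01 to -0.10. The cause was not tested.

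Leaving out single libraries changed the sign of *Esam* against SMC (-0.91 to 0.30), *Anpep* in colonic pericytes against fibroblasts (-0.65 to 0.0141) and *Cox4i2* in SMC against fibroblasts (-3.45 to 2.41). Between pericytes of the tissues it did so for *Rgs5* (-0.28 to 0.13), *Abcc9* (-0.12 to 0.41), *Esam* (-1.15 to 0.0913), *Anpep* (-0.33 to 0.47) and *Ndufa4l2* (-1.28 to 0.24). In PDGFRα hi FB against other fibroblasts it did so for *Rgs4* (-0.24 to 0.64), *Esam* (-0.18 to 1.86) and *Anpep* (-0.21 to 0.10) in the small intestine and for *Mcam* (-0.30 to 0.87) and *Esam* (-0.99 to 2.35) in the colon, and for *Esam* in PDGFRα hi FB (-1.06 to 3.23) and Fgfr2+ FB (-0.11 to 1.45) between the tissues. The cause was not tested.

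The replicate number as a block gave 2 called members in place of 3 for colonic PDGFRα hi FB against other fibroblasts (*Cox4i2*, 2.95, not called) and changed no other call of a member. Of 135 pairs of libraries with the same number in different populations 1 had a correlation of deviations above 0.1, and 23 of 30 libraries correlated best with their own number, a hint from the data and not the design.

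Ordered by TPM, 8 of 10 members kept their rank in small intestinal pericytes and 10 of 10 in colonic pericytes. The shallowest library held 2245052 counts, in which 3 counts correspond to more than 1 CPM, so lower levels are not resolved there.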
